A study of Mus musculus with 12 samples.

Results

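The translation factors described here are the proteins that start and extend the reading of messenger RNA on ribosomes, together with the kinases and binding proteins that regulate them. Their genes were taken as all rows of a deposited count table whose symbol begins with Eif or Eef and a factor number, which matched 63 rows. The rule left out the sex-linked pair Eif2s3x and Eif2s3y and pseudogene symbols ending in -ps, of which the table held 0. That gave 61 members among 24015 genes. Of these, 59 passed the filter for testing, 10 or more counts in 3 or more libraries. The other 2, Eif3j1 and Eif3j2, are near-identical copies of the same eIF3 subunit gene and were listed at 0 in all 12 libraries.

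The RNA came from sorted nuclei of mouse hippocampus, with 3 libraries in each of 4 groups titled Basal, Early, Late and Reactivated. All mice were ArcCreERT2 crosses to R26R-STOP-floxed-eYFP with the genotype given as +/+, so that 4-Hydroxytamoxifen let Cre, driven by the activity-regulated Arc gene, switch on a yellow fluorescent reporter. The drug was given 1 h before contextual fear conditioning, after 24 h in darkness, and tissue was collected 1.5 to 2 h after conditioning or on day 5, with part of the mice returned to the fear-inducing tone and context before the later collection. Nuclei from pools of 10 to 12 mice were treated with 1% paraformaldehyde and sorted by staining for NeuN, Arc and GFP, with 10000 nuclei per condition. All 12 libraries carry 1 and the same treatment entry (foot shock and collection on day 0, no recall), so the groups rest on the titles, and which gate and collection time belongs to each title is read from the protocol and not stated for any library. The sources used here give no ages. Nuclear RNA holds unspliced as well as spliced transcripts, and neither cytoplasmic RNA nor protein was measured.

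Initiation begins when eIF2, bound to GTP and the initiator tRNA, joins the small ribosomal subunit with eIF1, eIF1A, eIF5 and the large eIF3 complex. The cap of the messenger is bound by eIF4E, which the scaffold eIF4G joins to the helicase eIF4A as the complex eIF4F, while the 4E-BP proteins block that joining until mTOR kinase phosphorylates them. The 4 eIF2 kinases slow initiation by keeping eIF2B from recharging eIF2, and eEF2 kinase slows elongation by inactivating eEF2. In the hippocampus both brakes are known for their part in protein synthesis-dependent memory.

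Library totals ran from 4838166 to 11120255 counts. Rn45s, the ribosomal RNA precursor, took 4.72% to 12.9% of the counts in Basal and Early and 18.8% to 36.5% in Late and Reactivated, and Basal 3 (12.2%) and Early 3 (12.9%) were highest in their groups. With Rn45s set aside, the 61 members together took 0.407% to 0.426% of the counts (Basal), 0.416% to 0.419% (Early), 0.462% to 0.474% (Late) and 0.446% to 0.452% (Reactivated). The summed normalized count of 10 dentate granule cell markers ran from 8888 to 13326 in Basal and from 1481 to 3951 in the other groups, while that of 8 CA1 pyramidal markers ran from 860 to 1268 in Basal and from 2278 to 4009 elsewhere. CA3 and CA2 pyramidal markers summed to 1061 to 1392 in Basal and 2407 to 4608 elsewhere, with 7 of 8 up in Late and in Reactivated against Basal. Interneuron markers summed to 4074 to 4847 in Basal and 2119 to 3072 elsewhere, with 4 of 10 down in Late and 5 down and 1 up in Reactivated. Astrocyte markers summed to 2050 to 2409 in Late and 2619 to 7684 in the other groups, with 5 of 8 higher in Reactivated than in Late. Sums of 7 general neuronal markers were 23024 to 25606 in Basal, 26340 to 31688 in Early and Late, and 35360 to 40372 in Reactivated. Microglial markers summed to 685 to 834 in Basal and Early, 853 to 2120 in Reactivated and 5691 to 9762 in Late, with 3 of 6 tested up and 3 down in Late against Basal. Oligodendrocyte markers summed to 1660 to 2451 in Basal and Early, 2875 to 7562 in Reactivated and 4737 to 9957 in Late, where 3 of 8 rose and 4 fell against Basal. No listed marker of any of these types was at 0 in every library. These sums and the Rn45s share move with the groups, and their part in the changes given below was not tested. In such sorted bulk samples, fewer nuclei of a type and less RNA per nucleus cannot be told apart.

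Values below are normalized counts, that is counts divided by the effective size of the library relative to the mean over libraries, and a gene that rose or fell passed an adjusted p of 0.05 in the quasi-likelihood test of edgeR, adjusted over all 15668 genes tested. Changes are log2 fold changes ± SE with 3 libraries per group. Over all 4 groups together, 31 of the 59 members (52.5%) differed, against 58.6% of all genes tested. In Early against Basal, 0 members rose and 0 fell, where 3.36% of all genes rose and 2.66% fell. In Late against Basal, 17 members (28.8%) rose and 8 (13.6%) fell, where 25.4% of all genes rose and 23.6% fell. In Reactivated against Basal, 17 (28.8%) rose and 4 (6.78%) fell, against 20.6% and 18.8% of all genes. The members therefore lay near the background in rises in Late, and a smaller share of them fell than of all genes in both comparisons, and no test of the list as such was made. The median change of the members was 0.18 in Late and 0.26 in Reactivated, where that of all genes was -0.03 and 0.02. Both comparisons use the same Basal libraries.

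The scale set between libraries bears on these directions. With every library scaled to one total count, called the same total below, the median of all genes moved to -0.87 in Late and -0.46 in Reactivated against Basal, the calls for all genes split into 1401 up and 9062 down and into 1240 up and 5833 down, in place of 3981 and 3705 and of 3228 and 2946, and the member calls became 4 up and 36 down and 3 up and 14 down. With Rn45s left out of those totals, the members split into 10 up and 18 down and into 12 up and 9 down. All genes then split into 2532 up and 5944 down in Late and into 2145 up and 4302 down in Reactivated. The members' median stayed above that of all genes by 0.20 and 0.24 under the same total, against 0.21 and 0.24 in the main scaling. Changes are therefore relative to the main scaling, under which the median of all genes was -0.03 in Late and 0.02 in Reactivated against Basal. Of 96 member calls over the 6 comparisons, 17 held under every alternative in which the gene was tested. In Late against Basal these were the calls of Eif4e, Eif4e2, Eif4e3, Eif1, Eif5b and Eif6. In Late against Early they were those of Eif4e, Eif4e2, Eif4e3, Eif4a2, Eif4g2 and Eif1. In Reactivated they were those of Eif4ebp1 against Basal, Eif2ak2 against Early, and Eif4e2, Eif4e3 and Eif1 against Late. The falls of Eif4a2 (-0.86) and Eif4g2 (-0.85) in Late against Basal did not pass with the values as deposited, without scaling.

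**Figure D1:**
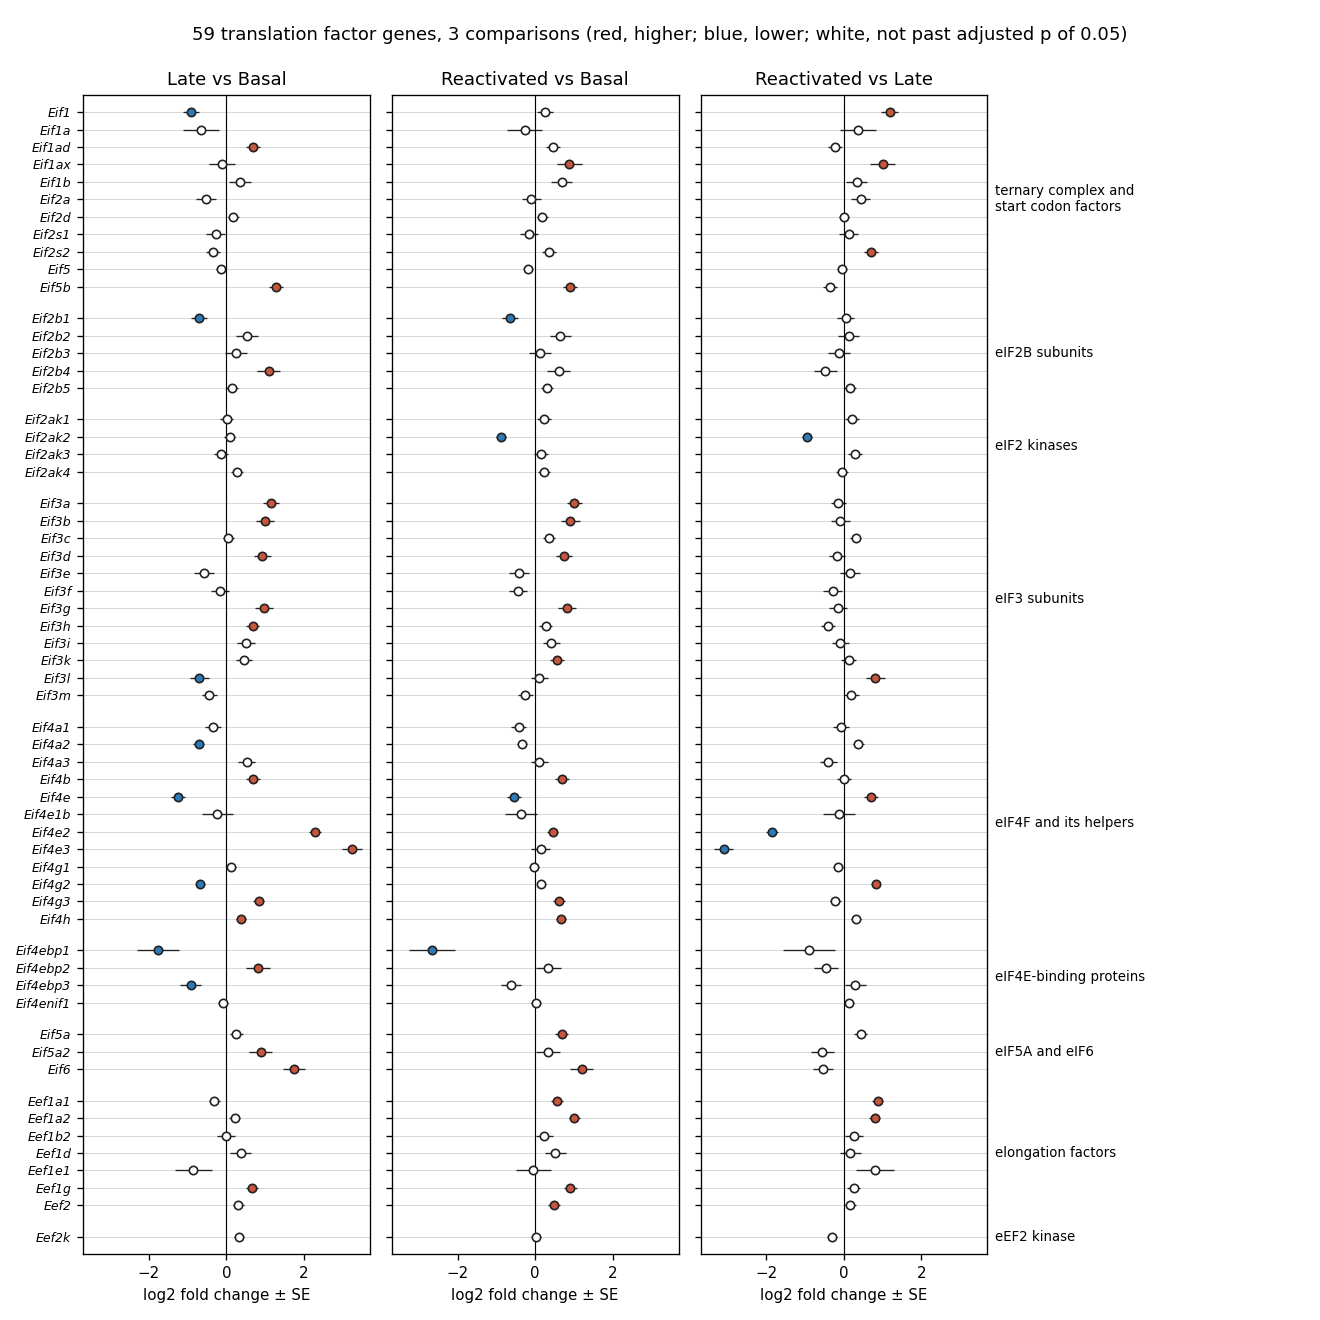
Log2 fold change ± SE (x axis) of the 59 tested members (rows, grouped by role) in Late against Basal, Reactivated against Basal and Reactivated against Late, with 3 libraries per group and filled points for genes past the adjusted p of 0.05. Eif4e3 at 3.24 and Eif4e2 at 2.29 lie farthest right in the first panel, and Eif2ak2 at -0.95 is lower in Reactivated than in Late.

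Eif4e3 and Eif4e2 had the largest changes of all members in Late against Basal. Eif4e, the main cap-binding protein of initiation, fell in Late, while these relatives rose. Eif4e2 encodes 4EHP, which binds the cap but does not recruit eIF4G and is known as a repressor of bound messengers, and Eif4e3 encodes another, atypical member of the family. Normalized counts of Eif4e were 333, 302 and 258 (Basal), 364, 343 and 264 (Early), 118, 102 and 151 (Late) and 218, 184 and 206 (Reactivated). All 3 Late libraries lay below every other library, and the Reactivated libraries lay between Late and the other groups without overlap. The fall was -1.26 ± 0.18 in Late (adjusted p = 7.65e-05) and -0.55 ± 0.18 in Reactivated against Basal (adjusted p = 0.024), and Reactivated was above Late by 0.70 ± 0.19 (adjusted p = 0.0137). The call of Reactivated against Basal ended without Basal 1, Basal 2 or Reactivated 2 (changes of -0.48 to -0.54), and that against Late ended without Late 1 or Late 2 (0.66 and 0.58).

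Eif4e2 had normalized counts of 391, 456 and 430 (Basal), 498, 481 and 449 (Early), 2118, 2054 and 2096 (Late) and 723, 513 and 508 (Reactivated). The Late libraries lay close together and far above all others. The rise in Late was 2.29 ± 0.15 against Basal, a 4.9-fold difference (adjusted p = 8.95e-08), and Reactivated lay below Late by -1.85 ± 0.15 (adjusted p = 9.46e-07). Against Basal, the smaller rise in Reactivated (0.45 ± 0.15, adjusted p = 0.0273) ended without Basal 1 (0.38) or Reactivated 1 (0.26) and turned to -0.05 with libraries scaled to the same total.

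For Eif4e3, Basal held 325, 356 and 255, Early 328, 354 and 310, Late 3800, 3182 and 1836, and Reactivated 408, 368 and 258. Late 3 was the lowest of its group and still above every library outside it, and the other 3 groups overlapped. Late exceeded Basal by 3.24 ± 0.25 (9.44-fold, adjusted p = 3.24e-07), which ranked 226 from the highest of 15668 genes, and exceeded Reactivated, where the change from Late was -3.10 ± 0.25 (adjusted p = 9.57e-07). Reactivated against Basal gave 0.14 ± 0.24 (adjusted p = 0.668). The small intronless receptor gene Gpr27 overlaps the Eif4e3 locus in RefSeq, and the sources used here do not give the strand setting of the counting, so reads of an overlap cannot be told apart. Gpr27 rose in Late (1.25 ± 0.34, adjusted p = 0.00773) and in Reactivated (1.32 ± 0.34, adjusted p = 0.00795), where Eif4e3 did not pass. Under the same total its rise in Late did not pass (0.44, adjusted p = 0.215).

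The fourth cap-binding gene, Eif4e1b, known from oocytes, stood at 16.7 to 61.7 and did not pass in any comparison. Gigyf2, which encodes the partner protein of 4EHP and lies near Eif4e2, is not a translation factor by symbol and was looked up after the values of Eif4e2 were seen. Its normalized counts were 1194, 1144 and 1668 (Basal), 1189, 1273 and 2090 (Early), 5518, 5073 and 3649 (Late) and 2324, 2254 and 2048 (Reactivated). Late lay above all other libraries here too, with a rise of 1.83 ± 0.23 against Basal (adjusted p = 1.74e-05), and Reactivated lay below Late by -1.10 ± 0.22 (adjusted p = 0.00233).

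Promoters of Eif4e and Eif4e2, which moved in opposite directions, are shown as examples. RefSeq gives a promoter window, 250 bases before to 50 after a start, for 47 of the 61 members, Eif4e3 not among them. Its build, GRCm38.p6, is later than the mm9 named for the counts. The E-box CACGTG, bound by Myc and by clock and MiT family factors, was searched on both strands, where it reads the same. It occurred in 7.15% of 32851 mouse promoters and in 14 of 62 promoters of the members (22.6%), from 12 genes. Those genes are Eif4e, Eif4a1, Eif4g1, Eif4h, Eif1b, Eif3a, Eif3f, Eif3k, Eif5a, Eif5a2, Eef2 and Eef2k. Of them, Eif4h, Eif3a and Eif5a2 rose in Late, Eif4e fell, and the other 8 did not pass in Late against Basal. The Eif4e window lies at chr3:138527018-138527317 on the plus strand and holds the motif, in capitals, at positions -228 and -64 from the annotated start. It is 1 of 2 starts listed and the one chosen for holding it.
Eif4e: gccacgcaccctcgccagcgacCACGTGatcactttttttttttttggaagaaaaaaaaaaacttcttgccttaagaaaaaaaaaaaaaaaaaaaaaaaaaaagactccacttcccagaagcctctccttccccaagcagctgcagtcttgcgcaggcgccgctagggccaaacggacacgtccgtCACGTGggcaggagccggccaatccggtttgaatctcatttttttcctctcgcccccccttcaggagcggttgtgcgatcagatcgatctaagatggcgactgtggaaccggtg
The Eif4e2 window, at chr1:87213661-87213960 on the plus strand, is 1 of 3 starts listed and held 0 matches to the motifs searched.
Eif4e2: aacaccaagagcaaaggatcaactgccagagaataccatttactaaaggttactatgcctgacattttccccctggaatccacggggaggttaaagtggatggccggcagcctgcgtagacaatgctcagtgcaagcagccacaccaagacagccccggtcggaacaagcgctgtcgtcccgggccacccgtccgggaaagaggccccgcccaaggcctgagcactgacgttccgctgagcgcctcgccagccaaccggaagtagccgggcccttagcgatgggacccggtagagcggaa
A match is a run of letters and not a measured binding site. Most promoters hold no E-box, and a link of the motif to the direction of change was not tested.

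Among the scaffolds, Eif4g3 rose and Eif4g2 fell in Late. Eif4g3 encodes a full scaffold like Eif4g1, and Eif4g2 encodes DAP5, a shorter relative that lacks the eIF4E-binding part. Eif4g3 stood at 3044, 3201 and 3702 (Basal), 3324, 3569 and 4356 (Early), 6277, 6259 and 5189 (Late) and 4953, 5614 and 4695 (Reactivated). Late and Reactivated lay above all Basal and Early libraries and overlapped each other. It rose by 0.83 ± 0.15 in Late (adjusted p = 0.000313, turning to -0.02 with libraries scaled to the same total) and by 0.62 ± 0.15 in Reactivated (adjusted p = 0.00453, 0.14 under the same total). Eif4g2 read 1053, 1081 and 1046 (Basal), 1106, 997 and 1037 (Early), 636, 617 and 747 (Late) and 1195, 1146 and 1203 (Reactivated). Late was lowest without overlap, with a fall of -0.67 ± 0.12 against Basal (adjusted p = 0.000413), and Reactivated exceeded Late by 0.82 ± 0.12 (adjusted p = 0.000196). Eif4g1, the scaffold most used in initiation, ran from 1817 to 2344 over the 12 libraries and did not pass in any comparison.

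Eif4a2, the helicase paralogue abundant in brain, had 795, 724 and 618 (Basal), 769, 713 and 620 (Early), 429, 403 and 473 (Late) and 573, 545 and 570 (Reactivated). The Late libraries were below all others and the Reactivated libraries were below Basal and Early. The fall in Late was -0.71 ± 0.14 (adjusted p = 0.000708), and that in Reactivated, -0.34 ± 0.14, did not pass (adjusted p = 0.061). Its introns hold several snoRNA genes and its locus overlaps Rfc4, so its counts may include reads of these. Eif4a1 stood at 348 to 600 (Basal), 352 to 511 (Early), 361 to 402 (Late) and 320 to 388 (Reactivated), with -0.35 ± 0.20 in Late (adjusted p = 0.145), and Basal 3 and Early 3 were the lowest of their groups.

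Both helpers of the helicase, the RNA-binding proteins Eif4b and Eif4h, rose in Late and in Reactivated. Eif4h was 289, 293 and 290 (Basal), 334, 260 and 322 (Early), 363, 358 and 402 (Late) and 471, 446 and 473 (Reactivated). Reactivated was highest without overlap. Its rise was 0.67 ± 0.13 in Reactivated (adjusted p = 0.00151, ending under the same total at 0.19) and 0.37 ± 0.13 in Late (adjusted p = 0.033), and the latter ended without any 1 of the 6 libraries compared (0.31 to 0.40) and turned to -0.47 with libraries scaled to the same total. Eif4b ran from 476 to 724 in Basal and Early, with Basal 3 and Early 3 at the top (724 and 711), and from 782 to 1046 in Late and Reactivated, with changes of 0.68 ± 0.18 in Late (adjusted p = 0.00626, -0.16 under the same total) and 0.69 ± 0.18 in Reactivated (adjusted p = 0.00824, 0.22 under the same total). Eif4a3, the helicase of the exon junction complex, did not pass against Basal (0.53 ± 0.22 in Late, adjusted p = 0.0641). Of the 12 genes of eIF4F and its helpers, 5 rose and 3 fell in Late, and 4 rose and 1 fell in Reactivated. These are 41.7% and 25%, and 33.3% and 8.33%, beside 25.4% and 23.6%, and 20.6% and 18.8%, of all genes.

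**Figure D2:**
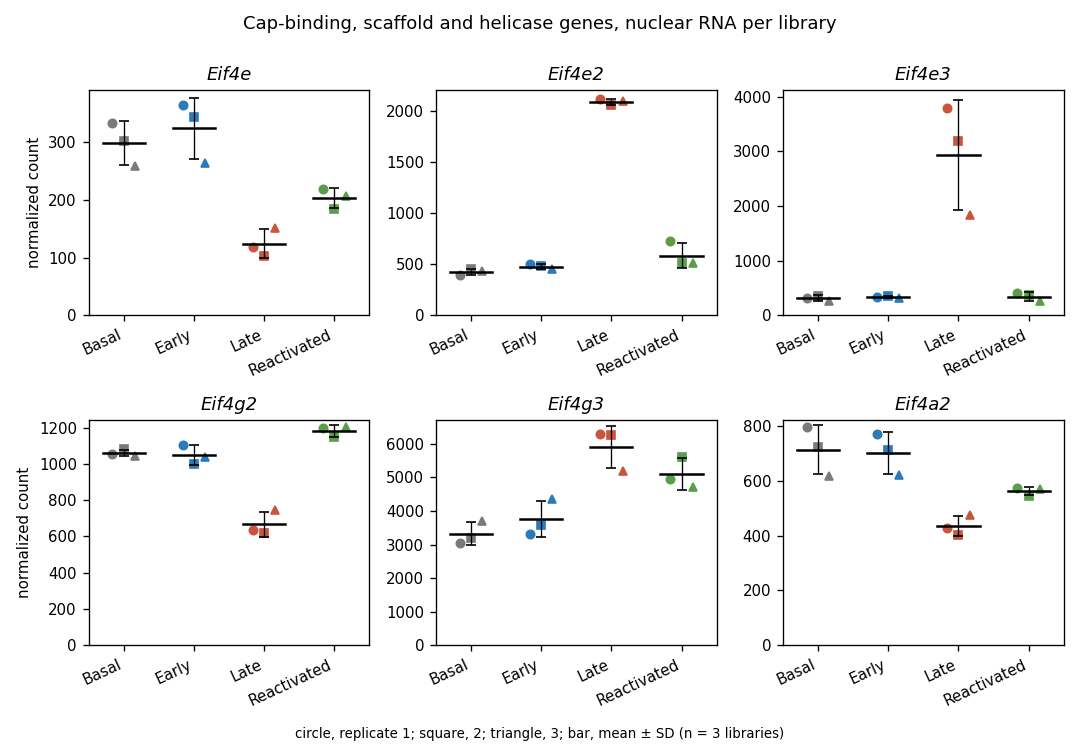
Normalized counts (y axis, from 0) of 6 genes of eIF4F in each of the 12 libraries by group, with bars for mean ± SD (n = 3). Late lies apart from the other groups in all panels but that of Eif4g3, low for Eif4e, Eif4g2 and Eif4a2 and high for Eif4e2 and Eif4e3.

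The binding proteins that hold back eIF4E had low counts. Eif4ebp1 was at 9.07, 16.8 and 19.4 (Basal), 5.22, 6.9 and 8.35 (Early), 3.6, 2.64 and 6.54 (Late) and 1.38, 2.64 and 2.66 (Reactivated), from raw counts of 1 to 27. After scaling, each Basal library was above every library of the other groups. Summed raw counts were 49 (Basal), 25 (Early), 12 (Late) and 7 (Reactivated), so the filter on counts was passed only through Basal and Early libraries. Eif4ebp1 was thus tested because of the groups where it was high, and its falls are only a description. It fell by 2.67 ± 0.59 on the log2 scale in Reactivated (adjusted p = 0.00322) and by 1.77 ± 0.55 in Late (adjusted p = 0.0154), the latter ending without Basal 3 (-1.54), Late 1 (-1.66) or Late 2 (-1.55). In Early the change of -1.14 ± 0.50 did not pass (adjusted p = 0.251). Eif4ebp3 fell in Late (-0.92 ± 0.27, adjusted p = 0.0107), which ended without Basal 2 (-0.76) or Late 2 (-0.69). Eif4ebp2, the 4E-BP most used in brain, had 33.7, 52.8 and 29.4 (Basal), 43.8, 40 and 41.8 (Early), 82.9, 62.1 and 57 (Late) and 71.6, 41.4 and 35.5 (Reactivated). Late did not overlap Basal, and the rise of 0.81 ± 0.31 (adjusted p = 0.0449) ended in 8 of the 12 fits that each left out 1 library (0.63 to 0.92) and turned to -0.06 under the same total. Eif4enif1, the shuttling protein that carries eIF4E into the nucleus, ran from 422 to 541 and did not pass in any comparison.

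Among the factors that choose the start codon, Eif1 and Eif5b passed in Late against Basal and the eIF2 subunits did not. Of the 11 genes of this role, eIF2 subunits included, 2 rose (18.2%) and 1 fell (9.09%) in Late, beside 25.4% and 23.6% of all genes. In Reactivated 2 rose (18.2%) and 0 fell, beside 20.6% and 18.8%. Eif1, which keeps the scanning ribosome from starting at a wrong codon, stood at 215, 238 and 221 (Basal), 307, 270 and 202 (Early), 110, 89.8 and 152 (Late) and 222, 314 and 268 (Reactivated). All 3 Late libraries lay under every other library. The fall was -0.92 ± 0.21 against Basal (adjusted p = 0.0025), and Reactivated exceeded Late by 1.18 ± 0.21 (adjusted p = 0.00102). Eif5b, the GTPase that joins the ribosomal subunits, had 906, 914 and 1173 (Basal), 968, 884 and 1422 (Early), 2683, 2436 and 2142 (Late) and 1853, 2021 and 1734 (Reactivated). It was highest in Late, next in Reactivated and overlapped between Basal and Early. Its rise was 1.28 ± 0.18 in Late (adjusted p = 5.68e-05) and 0.91 ± 0.18 in Reactivated (adjusted p = 0.00161). The locus overlaps Rev1 in RefSeq.

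The eIF2 subunits themselves, Eif2s1 with the regulatory phosphorylation site and Eif2s2, stood at 74.6 to 128 and 135 to 289. Eif2s1 did not pass in any comparison (-0.28 ± 0.24 in Late and -0.16 ± 0.24 in Reactivated against Basal). Eif2s2 passed in 1, Reactivated above Late by 0.69 ± 0.18 (adjusted p = 0.014), a call that ended without Late 1 (0.59). Eif1ad, a nuclear relative of eIF1A whose locus overlaps Banf1, rose in Late (0.68 ± 0.18, adjusted p = 0.00653, -0.15 under the same total). The X-linked eIF1A gene Eif1ax rose in Reactivated (0.88 ± 0.32, adjusted p = 0.0409) on counts of 19.4 to 41.6 in Basal and 51.9 to 80.8 in Reactivated, and that call ended in 7 of the 12 fits without 1 library (0.62 to 0.97) and with the replicate number as a block. Of the others, Eif5, the GTPase activator of eIF2, ran from 410 to 515, and Eif1b, Eif2a and the other eIF1A gene, Eif1a, did not pass against Basal (0.35, -0.53 and -0.65 in Late and 0.68, -0.10 and -0.27 in Reactivated). Eif2d, which can deliver initiator tRNA without GTP, did not pass against Basal (0.18 ± 0.14 in each) but rose against Early in Late (0.42 ± 0.14, adjusted p = 0.0215, -0.33 under the same total) and in Reactivated (0.43 ± 0.14, adjusted p = 0.0315), with the first call ending without Early 1, Early 2 or Late 1 (0.34 to 0.40) and the other without Early 1, Early 2, Reactivated 1 or Reactivated 2 (0.35 to 0.43).

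Of the 4 eIF2 kinases, 1 fell in Reactivated against Basal (25%, beside 18.8% of all genes). In Late 0 passed, where 25.4% of all genes rose and 23.6% fell. Eif2ak2 encodes PKR, the kinase activated by double-stranded RNA and induced by interferon. It stood at 2818, 2610 and 2600 (Basal), 2839, 2964 and 2399 (Early), 3100, 2606 and 2765 (Late) and 1457, 1329 and 1591 (Reactivated). The Reactivated libraries were all below every other library, and the other 3 groups overlapped. Reactivated was lower by -0.87 ± 0.13 than Basal (adjusted p = 0.000275), by -0.91 ± 0.13 than Early (adjusted p = 0.000863) and by -0.95 ± 0.13 than Late (adjusted p = 0.000125). These 3 comparisons share the Reactivated libraries. With the values as deposited, the calls against Basal (-0.90, adjusted p = 0.0984) and Late (-0.79, adjusted p = 0.201) did not pass. The locus overlaps the gene models Gm26637 and Gm6548 in RefSeq.

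The Eif2ak2 promoter is shown because it holds the core of the interferon-stimulated response element, searched on both strands as 2 copies of GAAA with any 2 bases between them. That core occurred in 3.44% of all promoters and in 3 of 62 member promoters (4.84%), those of Eif2ak2, Eif2s1 and Eif3a. The window is chr17:78882523-78882822 on the minus strand in GRCm38.p6, with the match, in capitals, 18 bases after the annotated start. The cAMP response element TGACGTCA, which reads the same on both strands, occurred in 1.79% of all promoters and in 1 member promoter, that of Eef2.
Eif2ak2: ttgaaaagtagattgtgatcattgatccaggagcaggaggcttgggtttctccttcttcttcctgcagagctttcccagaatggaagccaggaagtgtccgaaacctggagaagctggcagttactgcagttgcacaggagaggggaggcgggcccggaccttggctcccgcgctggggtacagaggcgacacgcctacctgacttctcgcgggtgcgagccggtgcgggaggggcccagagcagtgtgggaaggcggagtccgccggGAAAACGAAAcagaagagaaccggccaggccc

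The other kinases did not pass in any comparison. Eif2ak1, encoding the heme-regulated kinase HRI, ran from 177 to 314, Eif2ak3, encoding PERK of the endoplasmic reticulum, from 172 to 293, and Eif2ak4, encoding GCN2, the sensor of uncharged tRNA, from 616 to 966. Their changes against Basal in Late were 0.01 ± 0.17, -0.13 ± 0.18 and 0.28 ± 0.15, and in Reactivated 0.23 ± 0.17, 0.15 ± 0.18 and 0.22 ± 0.15.

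The 5 eIF2B subunits, which recharge eIF2 with GTP, gave 1 rise and 1 fall in Late. That is 20% each way, near the 25.4% up and 23.6% down of all genes. Eif2b1, the subunit alpha, had 101, 119 and 87.5 (Basal), 109, 101 and 83.5 (Early), 57.6, 64.7 and 65.4 (Late) and 53.7, 75.7 and 63.9 (Reactivated). Late and Reactivated lay below all Basal and Early libraries. It fell by 0.71 ± 0.21 in Late (adjusted p = 0.0128) and by 0.65 ± 0.21 in Reactivated (adjusted p = 0.0231), and the calls ended without Basal 2 or Late 1 (-0.59 and -0.65) and without Basal 1, Basal 2, Reactivated 1 or Reactivated 3 (-0.53 to -0.68). Eif2b4, the subunit delta, read 139, 211 and 368 (Basal), 171, 206 and 349 (Early), 544, 551 and 450 (Late) and 350, 403 and 353 (Reactivated). Basal 3 and Early 3 were near the Reactivated libraries, and Late was above all others. The rise in Late was 1.09 ± 0.30 (adjusted p = 0.00739, 0.27 under the same total), and Reactivated gave 0.61 ± 0.30 (adjusted p = 0.117). Eif2b5, the catalytic subunit epsilon, stood at 196 to 321 and did not pass (0.14 ± 0.16 in Late and 0.30 ± 0.16 in Reactivated), nor did Eif2b2 (0.53 and 0.65) and Eif2b3 (0.25 and 0.12).

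In eIF3, the large complex that joins the small subunit to the messenger, 5 of the 12 tested subunits rose and 1 fell in Late, and 5 rose and 0 fell in Reactivated. That is 41.7% up in each and 8.33% and 0% down, beside 25.4% and 20.6% up and 23.6% and 18.8% down of all genes. The subunits Eif3a, Eif3b, Eif3d and Eif3g rose in both. Eif3a, the scaffold subunit, was at 1215, 1158 and 1879 (Basal), 1263, 1208 and 1874 (Early), 3325, 3316 and 2828 (Late) and 2963, 2841 and 2782 (Reactivated). Late and Reactivated lay above all Basal and Early libraries, among which Basal 3 and Early 3 stood apart as the highest. It rose by 1.15 ± 0.20 in Late (adjusted p = 0.000283) and 1.01 ± 0.20 in Reactivated (adjusted p = 0.0015). A snoRNA and a microRNA gene lie within the locus in RefSeq.

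Eif3b, the other core subunit that holds RNA-binding and scaffold parts, ran from 293 to 518 (Basal), 330 to 569 (Early), 586 to 910 (Late) and 672 to 780 (Reactivated). Its rises were 1.00 ± 0.24 (adjusted p = 0.00347) and 0.91 ± 0.24 (adjusted p = 0.00916). Eif3d, which can bind the cap itself, rose by 0.93 ± 0.21 in Late (adjusted p = 0.00224) and 0.75 ± 0.21 in Reactivated (adjusted p = 0.0122), and Eif3g, an RNA-binding subunit, by 0.98 ± 0.23 (adjusted p = 0.00306) and 0.82 ± 0.23 (adjusted p = 0.0127). Without Basal 2 both calls in Reactivated ended (0.57 and 0.65). In all 4 genes Basal 3 was the highest Basal library and Early 3 the highest Early library. With those 2 libraries left out together, an alternative chosen after seeing the data, the 4 genes still passed in both comparisons. With libraries scaled to the same total none of the 4 passed in Late (0.10 to 0.32), and in Reactivated Eif3b, Eif3d and Eif3g did not (0.28 to 0.45).

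The other subunits gave other patterns. Eif3h rose in Late (0.68 ± 0.17, adjusted p = 0.00435, -0.17 under the same total) and gave 0.27 ± 0.17 in Reactivated (adjusted p = 0.23). Eif3k, a peripheral subunit, rose in Reactivated (0.56 ± 0.19, adjusted p = 0.0326, 0.08 under the same total), which ended without Basal 1, Basal 2, Reactivated 1 or Reactivated 3 (0.48 to 0.59). Eif3l was at 166, 162 and 123 (Basal), 164, 160 and 104 (Early), 90.1, 75.3 and 109 (Late) and 138, 208 and 137 (Reactivated). It was lowest in Late, overlapping Early alone, and fell by 0.70 ± 0.24 (adjusted p = 0.0263), a call that ended without Basal 1, Basal 2, Late 1 or Late 2 (-0.58 to -0.68). Eif3e and Eif3m stood at -0.58 ± 0.25 and -0.44 ± 0.19 in Late without passing (adjusted p = 0.0726 and 0.073), and Eif3c, Eif3f and Eif3i at 0.05, -0.16 and 0.50.

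**Figure D3:**
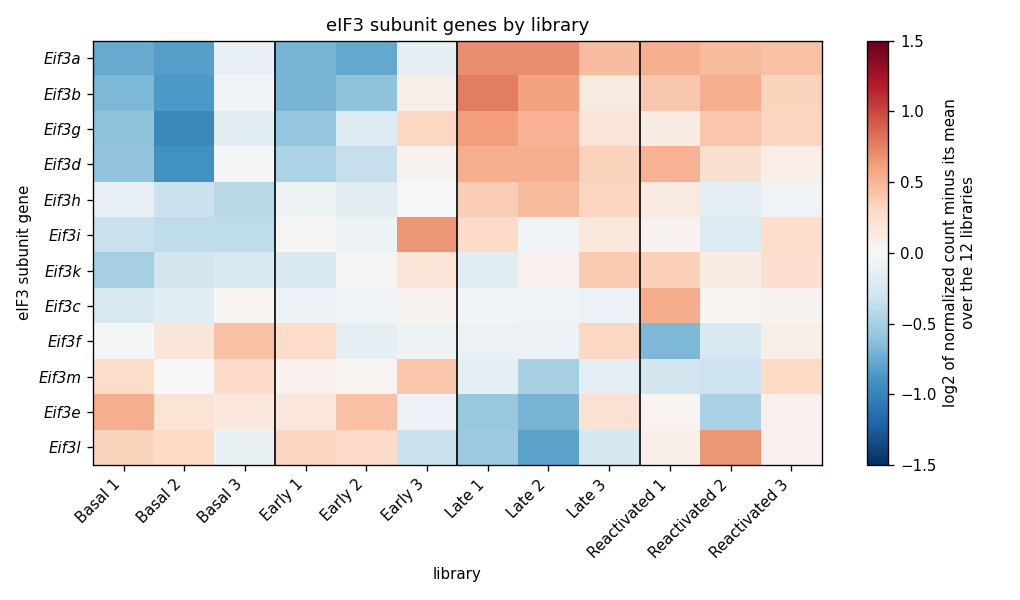
Log2 normalized count of the 12 tested eIF3 subunits (rows, ordered by their change in Late against Basal) minus the gene's mean over the 12 libraries (columns). Eif3a, Eif3b, Eif3g and Eif3d are high in Late and Reactivated and low in Basal and Early, with Basal 3 and Early 3 the highest of their groups, while Eif3l, Eif3e and Eif3m are each lowest in Late 2.

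Eif6, which keeps free large ribosomal subunits from joining and also acts in their making, had the largest rise in Reactivated of all members. Its normalized counts were 24.6, 53.9 and 25.1 (Basal), 47, 46.2 and 64.3 (Early), 125, 125 and 94.3 (Late) and 82.6, 78.3 and 76.4 (Reactivated). The 4 groups did not overlap except Basal and Early. The rise was 1.74 ± 0.29 in Late (adjusted p = 0.000228) and 1.20 ± 0.29 in Reactivated (adjusted p = 0.00562, 0.71 and not passing under the same total). Eif5a, the hypusine-bearing factor that helps ribosomes past difficult stretches, rose in Reactivated from 190 to 231 in Basal to 267 to 398 (0.69 ± 0.17, adjusted p = 0.0058, 0.22 under the same total) and gave 0.26 ± 0.17 in Late (adjusted p = 0.225). Its locus overlaps Gps2. The paralogue Eif5a2 rose in Late (0.88 ± 0.30, adjusted p = 0.0257, 0.02 under the same total) on counts of 25.1 to 85.3, which ended without Basal 2, Basal 3, Late 1 or Late 3 (0.60 to 0.92), and gave 0.33 ± 0.31 in Reactivated (adjusted p = 0.42).

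Of the 7 elongation factors, 4 rose and 0 fell in Reactivated against Basal, and 1 rose in Late. These are 57.1% and 14.3%, beside 20.6% and 25.4% of all genes. Eef1a2, the form of eEF1A used in neurons and muscle to bring aminoacyl-tRNA to the ribosome, was at 961, 938 and 973 (Basal), 1308, 1177 and 1314 (Early), 1002, 1057 and 1255 (Late) and 1779, 2292 and 1700 (Reactivated). Reactivated was above every other library, and Basal was below every library of the other groups. The rise was 1.01 ± 0.14 (2.01-fold, adjusted p = 0.000189), with 0.40 ± 0.14 in Early (adjusted p = 0.128) and 0.21 ± 0.14 in Late (adjusted p = 0.244), and Reactivated exceeded Late by 0.80 ± 0.14 (adjusted p = 0.000966).

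Eef1a1, the widely used form, stood at 696, 559 and 716 (Basal), 726, 548 and 726 (Early), 539, 505 and 543 (Late) and 1059, 885 and 964 (Reactivated). Reactivated was highest and Late lowest, neither overlapping another group. Against Basal it rose by 0.56 ± 0.15 in Reactivated (adjusted p = 0.00871, ending under the same total at 0.07 and without Rn45s in that total at 0.33) and gave -0.31 ± 0.15 in Late (adjusted p = 0.0952), and Reactivated exceeded Late by 0.87 ± 0.15 (adjusted p = 0.000681). Eef1a1 has many processed copies in the genome, and the sources used here do not say how reads shared with them were counted.

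Eef1g, a subunit of the exchange factor that recharges eEF1A, had 185, 233 and 233 (Basal), 225, 210 and 260 (Early), 349, 340 and 342 (Late) and 496, 377 and 357 (Reactivated). Basal and Early lay below Late, and Late below Reactivated, with no overlap but that of Basal and Early. It rose in Reactivated (0.91 ± 0.16, adjusted p = 0.000726, 0.42 and not passing under the same total) and in Late (0.66 ± 0.16, adjusted p = 0.00359, -0.18 under the same total). The other subunits, Eef1b2 and Eef1d, did not pass (0.23 ± 0.22 and 0.52 ± 0.27 in Reactivated), and Eef1d was at 583 in Basal 3 and 622 in Early 3 against 298 to 327 in the other Basal and Early libraries. Eef1e1, a scaffold protein of tRNA synthetases, stood at 7.21 to 27.5 and did not pass.

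Eef2, the translocase that moves the ribosome along the messenger, was at 991, 965 and 1327 (Basal), 1037, 1033 and 1301 (Early), 1317, 1371 and 1391 (Late) and 1631, 1435 and 1539 (Reactivated). Reactivated was highest without overlap, and Basal 3 and Early 3 were again the highest of their groups. The rise was 0.49 ± 0.15 in Reactivated (adjusted p = 0.0186), which ended without Basal 1 (0.41) or Basal 2 (0.40) and under the same total (0.01). Late gave 0.31 ± 0.15 (adjusted p = 0.0949). Its kinase gene Eef2k had 595, 694 and 639 (Basal), 568, 622 and 676 (Early), 811, 758 and 850 (Late) and 698, 570 and 696 (Reactivated). Late was above all other libraries, but against Basal the change of 0.33 ± 0.13 did not pass (adjusted p = 0.0523), and the rise against Early (0.37 ± 0.13, adjusted p = 0.0333) turned to -0.37 under the same total and ended without Basal 1, Early 1, Early 2 or any 1 of the Late libraries (0.31 to 0.42).

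**Figure D4:**
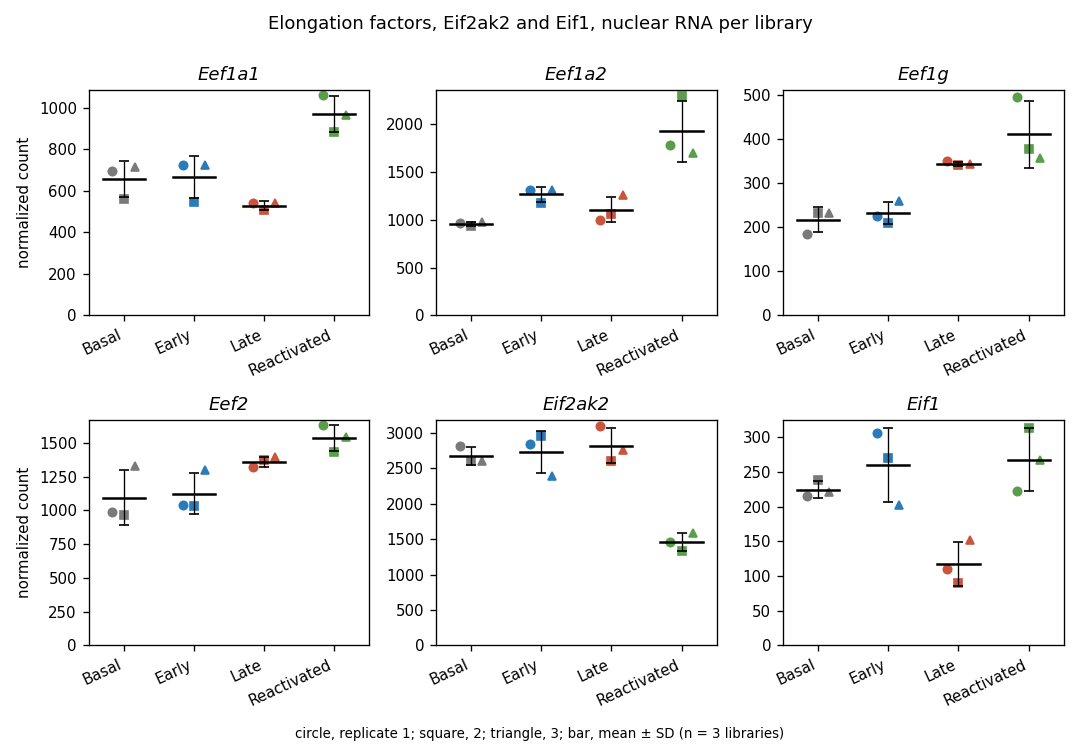
Normalized counts (y axis, from 0) of 4 elongation factors, Eif2ak2 and Eif1 in each of the 12 libraries by group, with bars for mean ± SD (n = 3). Reactivated lies highest for Eef1a1, Eef1a2, Eef1g and Eef2 and lowest for Eif2ak2, and Late lies lowest for Eef1a1 and Eif1.

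No member passed between Early and Basal. The median change of the 59 members was 0.07, where that of all genes was 0.01. With 0 members past the threshold in edgeR and 0 in DESeq2, 4 of the 59 had an unadjusted p under 0.05 in edgeR. Of all 15668 genes tested, 2665 did. Changes ran from -1.14 (Eif4ebp1) to 0.72 (Eif1b, 77.4 to 98.5 in Basal and 112 to 165 in Early, adjusted p = 0.165). Of the 19 genes of the mTOR pathway, 10 of the response to eIF2 phosphorylation and 21 of other cap, poly(A) and release factors, 0 passed in Early. Of all genes, 3.36% rose and 2.66% fell there.

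The comparisons with Early share the Late and Reactivated libraries with those against Basal. In Late, 16 members rose and 8 fell (27.1% and 13.6%), where 22% and 20.4% of all genes did. Eif4e2 and Eif4e3 rose by 2.13 ± 0.15 and 3.15 ± 0.25 (adjusted p = 1.75e-07 and 4.79e-07), and Eif4e fell by 1.38 ± 0.18 (adjusted p = 4.67e-05). In Reactivated, 12 rose and 3 fell (20.3% and 5.08%), where 13.5% and 12.7% of all genes did. Eef1g (0.82 ± 0.16, adjusted p = 0.00326) and Eif3a (0.98 ± 0.20, adjusted p = 0.00398) had the lowest p among those that rose. Under the same total, the member calls became 4 up and 37 down in Late and 2 up and 10 down in Reactivated, and all genes split into 1208 up and 8601 down in place of 3442 and 3189, and into 719 up and 4284 down in place of 2121 and 1988. The medians of the members were 0.03 and 0.18, and those of all genes -0.03 and 0.03. Without Early 1 the rises numbered 9 in Late and 6 in Reactivated, and without Early 2 they numbered 9 and 5. Eif1a fell in Late against Early (-1.32 ± 0.45, adjusted p = 0.0292) on counts of 16.8 to 72, which ended without Early 1 (adjusted p = 0.142), Late 1 (-1.20) or Late 2 (-1.22). Eif4a3 rose there (0.67 ± 0.22, adjusted p = 0.0272, -0.08 under the same total), which ended in 5 of the fits without 1 library (0.54 to 0.72).

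The title Reactivated points to the mice returned to the cue, and the comparison with Late asks how such nuclei differed from those titled Late. Here 8 members rose and 3 fell (13.6% and 5.08%), where 10.3% and 12.3% of all genes did, and the medians were 0.12 and 0.03. The 3 that were lower in Reactivated were Eif4e3, Eif4e2 and Eif2ak2, and the 8 that were higher were Eif4g2, Eef1a1, Eef1a2, Eif1, Eif4e, Eif2s2, Eif3l and Eif1ax. Without Late 1 the rises numbered 4 and without Late 2 they numbered 5. With libraries scaled to the same total, 19 rose and 3 fell, and all genes split into 3881 up and 1091 down in place of 1615 and 1926. For Eif4e3, Eif4g2 and Eif1, whose changes against Basal did not pass in Reactivated, the values there were 0.14 ± 0.24, 0.16 ± 0.12 and 0.26 ± 0.20.

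A ratio of counts of 2 paralogues within a library does not depend on the scale between libraries. For 7 pairs and 6 pairs of groups, 25 of the 42 ratios had libraries that did not overlap. The pairs were chosen with results known and no other gene pairs were counted, so that number is only a description. An exact two-sided permutation test of 3 against 3 libraries cannot go below p = 0.1, which each of these reached (adjusted p = 0.168 over the 42 tests), so none could pass. The ratio of Eif4e3 to Eif4e was 0.977 to 1.18 (Basal), 0.9 to 1.17 (Early), 32.3, 31.3 and 12.1 (Late) and 1.87, 2 and 1.25 (Reactivated). Late was far above the other groups, and Reactivated was slightly above Basal and Early. Eif4g3 to Eif4g1 was 1.53 to 1.77 (Basal), 1.67 to 1.98 (Early), 2.33 to 2.93 (Late) and 2.35 to 2.73 (Reactivated). Both later groups thus lay above Basal and Early and overlapped each other. Eif4a2 to Eif4a1 was 1.06 to 1.19 in Late and 1.33 to 1.78 in the other groups. Eif1b to Eif1 was 0.822 to 1.09 in Late, above the 0.325 to 0.458 of Basal and just above the 0.413 to 0.818 of Early. Eef1a2 to Eef1a1 was 1.36 to 1.68 in Basal, below Early and Late and only just below Reactivated, and the other groups overlapped one another. Basal 2 and Reactivated 1 both rounded to 1.68. Eif4ebp2 to Eif4ebp1 was 1.52 to 3.71 (Basal), 5 to 8.4 (Early), 8.71 to 23.5 (Late) and 13.3 to 52 (Reactivated), on the low counts of Eif4ebp1. Eif5a2 to Eif5a was 0.113 to 0.242 (Basal), 0.166 to 0.35 (Early), 0.254 to 0.335 (Late) and 0.118 to 0.201 (Reactivated). Early overlapped every other group there, and Basal overlapped Reactivated.

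**Figure D5:**
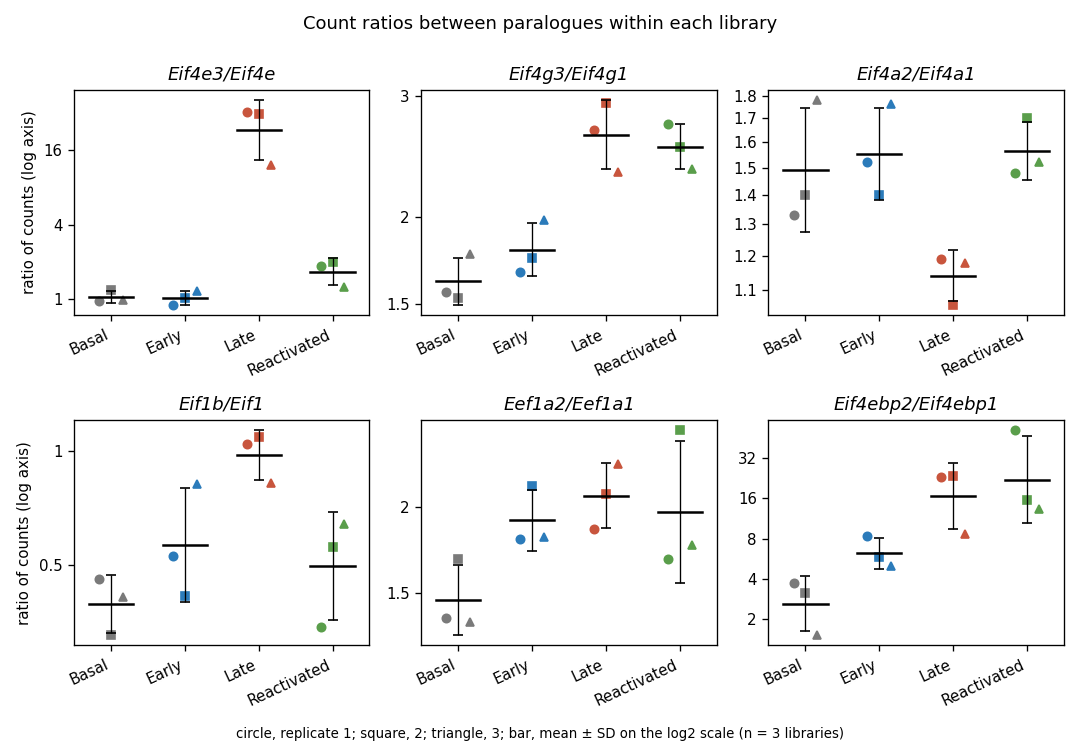
Ratio of counts between paralogues (y axis, log scale) in each of the 12 libraries by group, for 6 of the 7 pairs, with bars for mean ± SD on the log2 scale (n = 3). Late stands apart for Eif4e3 to Eif4e at 12.1 to 32.3, and both Late and Reactivated lie above Basal and Early for Eif4g3 to Eif4g1.

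Genes that regulate these factors were read from lists chosen for the pathway. Of 19 genes of the mTOR pathway, which frees eIF4E from the 4E-BPs, 6 rose and 6 fell in Late and 4 rose and 4 fell in Reactivated against Basal, with medians of -0.03 and 0.10. These shares, 31.6% each way in Late and 21.1% each way in Reactivated, lie near those of all genes (25.4% and 23.6%, and 20.6% and 18.8%), so the single genes below say nothing of the pathway as a whole. Deptor, an inhibitor that binds mTOR, stood at 424, 416 and 453 (Basal), 479, 469 and 562 (Early), 3108, 2931 and 2109 (Late) and 628, 1074 and 532 (Reactivated). Late was above all other libraries, with a rise of 2.65 ± 0.23 (adjusted p = 9.49e-07), and Reactivated rose by 0.79 ± 0.22 (adjusted p = 0.0128), which ended without Reactivated 2 (0.43). Pdcd4, an inhibitor of the helicase eIF4A, rose in Late (0.87 ± 0.17, adjusted p = 0.000731) from 520 to 617 in Basal to 813 to 1163. The lipid kinase subunit Pik3ca (-0.83 ± 0.12, adjusted p = 8.73e-05) and Rictor, of the other mTOR complex (-1.15 ± 0.18, adjusted p = 0.000114), fell in Late. Rictor also fell in Reactivated (-1.03 ± 0.18, adjusted p = 0.000623), where Larp1, a repressor of messengers for the translation machinery, rose (0.71 ± 0.15, adjusted p = 0.00223), as did Akt1 (1.00 ± 0.24, adjusted p = 0.0047). Under the same total Pdcd4 (0.01 in Late), Larp1 (0.22 in Reactivated) and Deptor in Reactivated (0.31) did not pass. Mtor ran from 1156 to 1626 and did not pass in any comparison.

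Of 12 genes that respond to eIF2 phosphorylation or act on it, 10 were tested, and 0 rose and 2 fell in Late while 2 rose and 0 fell in Reactivated. The 20% that fell in Late lies near the 23.6% of all genes, and the 20% that rose in Reactivated near the 20.6%. The 0 rises in Late and 0 falls in Reactivated stand beside 25.4% and 18.8% of all genes. The eIF2 phosphatase subunit Ppp1r15b (-0.73 ± 0.19, adjusted p = 0.00471) and Dnajc3, an inhibitor of the eIF2 kinases (-0.78 ± 0.23, adjusted p = 0.0102), fell in Late, the latter call ending without Late 1 (-0.68). Atf4, whose messenger is translated more when eIF2 is phosphorylated, was at 224, 198 and 387 (Basal), 255, 278 and 409 (Early), 256, 246 and 258 (Late) and 330, 517 and 457 (Reactivated). The groups overlapped between Basal and Reactivated, and the rise there of 0.68 ± 0.25 (adjusted p = 0.0404) ended in 7 of the 12 fits without 1 library (0.50 to 0.68). That rise also did not pass under the same total (0.24) or with Rn45s left out of it (0.46). Nor did it with the values as deposited (0.59) or in the fit of only the 2 groups (0.66). Impact, an inhibitor of GCN2, rose by 0.52 ± 0.16 (adjusted p = 0.0187, 0.05 under the same total), which ended without Basal 1, Basal 2, Reactivated 2 or Reactivated 3 (0.39 to 0.50).

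Of 21 other factors of the cap, the poly(A) tail and termination, 5 rose and 2 fell in Late and 3 rose and 2 fell in Reactivated. The 23.8% up in Late lies near the 25.4% of all genes and the 14.3% up in Reactivated below the 20.6%, while 9.52% fell in each, beside 23.6% and 18.8%. Pabpn1, the nuclear poly(A)-binding protein, stood at 2371, 2637 and 3902 (Basal), 2702, 3011 and 4565 (Early), 10531, 10607 and 7900 (Late) and 7145, 5764 and 5140 (Reactivated). Late was highest and Reactivated next, both above all Basal and Early libraries, with rises of 1.70 ± 0.23 (adjusted p = 3.8e-05) and 1.02 ± 0.23 (adjusted p = 0.00325). Pabpc1, its cytoplasmic counterpart that binds eIF4G, ran from 322 to 647 and did not pass in any comparison. Paip1, which binds Pabpc1 and promotes initiation, was at 315, 542 and 721 in Basal and 1563, 8028 and 1389 in Reactivated. Reactivated 2 stood far above the other libraries, and the rise of 2.79 ± 0.57 (adjusted p = 0.00198) was 1.48 without it. Mcts1, a partner of Denr in re-initiation, fell in Late (-2.26 ± 0.53, adjusted p = 0.00265) and in Reactivated (-2.33 ± 0.53, adjusted p = 0.00351), with 29.4 in Basal 3 and 37.6 in Early 3 against 76.2 to 94.5 in the other Basal and Early libraries. Abce1, which splits ribosomes after termination, fell in Late (-1.21 ± 0.27, adjusted p = 0.00186).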

How the data were processed

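The authors deposited 1 table of gene counts for 12 nuclear RNA-seq libraries, made by the SmartSeq2 protocol per the labels' protocols. The table is named as normalized, but all its values are whole numbers and library sums differ, so the deposited values were treated as raw counts. The submitters' processing notes name Bowtie2 2.0, Cufflinks 2.2, DESeq2 and the mouse build mm9. The tool that made the counts, its annotation and its use of strand are not stated there or in the labels.

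Genes with at least 10 counts in at least 3 libraries (15668 of 24015) were fitted with edgeR 4.0.16 in R 4.3.3, by the quasi-likelihood test with TMM scaling, 4 group means and all 12 libraries. Changes are log2 ± SE, and p-values were adjusted by Benjamini-Hochberg over all genes tested, with a threshold of 0.05. Each library is from a pool of mice, and the p-values rest on the spread between the libraries of a group. They treat all libraries as independent, also those of Early and Basal. The alternatives were DESeq2 1.42.0, median-of-ratios scaling, the same total with and without Rn45s, the values as deposited with no scaling, no filter on low counts, fits of only 2 groups, the replicate number as a block, and leaving out each library.

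The members and lists were chosen with earlier results of these data known. Members named are up to 4 per direction and comparison by lowest p where the higher group's mean reached 50, together with a set of well-known factors and regulators. Other members were named to describe their role group, and were chosen after their values were seen. Libraries of the same number deviated together between Early and Basal, where the correlation of their deviations from the group means was 0.143 to 0.484. Basal 1 with Early 2 (0.223) and Basal 2 with Early 1 (0.168) lay above the lowest of these, so numbers 1 and 2 were not told apart, and the values given use no block. In the other comparisons it ran from -0.217 to 0.166, with at least 1 pair not above 0.1. Promoter sequences are from RefSeq.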

Additional observations from a re-analysis of the deposited data

How the results depend on the processing

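A value was counted as reversed where its sign changed and it passed the threshold in the main fit or the alternative. By that count, 25 of 174 named member values reversed under at least 1 alternative. Counting each value once per alternative, 3381 kept their side of the threshold, 27 reversed, 73 passed it newly and 162 no longer passed. The 3381 include values that passed in neither fit, whose signs were not compared. DESeq2 kept 172 and median-of-ratios scaling 174. Under the same total, values that reversed in Late against Basal were Eef1a2 -0.62, Eef1g -0.18, Eif4h -0.47, Eif2ak2 -0.77, Eef2 -0.52, Eef2k -0.51, Eif4g1 -0.72, Eif4g3 -0.02, Eif4ebp2 -0.06, Eif2ak1 -0.84, Eif2ak4 -0.55, Eif2b5 -0.70 and Eif5a -0.57. In Late against Early they were Eef1g -0.18, Eif4h -0.45, Eif2ak2 -0.72, Eef2 -0.46, Eef2k -0.37, Eif4g1 -0.64, Eif4g3 -0.10, Eif2ak4 -0.63, Eif2b5 -0.56 and Eif5a -0.57, and in Reactivated against Basal Eif4e2 -0.05 and Eef2k -0.46. Without Rn45s in the total Eif4h reversed in Late against Basal (-0.00), and with the values as deposited Eef2k in Late against Early (-0.06). In these the scale itself moved the median of all genes. Under the same total, members up and down were 4 and 36 in Late and 3 and 14 in Reactivated against Basal, 4 and 37 and 2 and 10 against Early, and 19 up in Reactivated against Late. Without Rn45s they were 10 and 18 in Late and 9 down in Reactivated against Basal, 8 and 17 in Late and 7 up in Reactivated against Early.

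With the values as deposited, the genes called were 368 in Early, 4473 in Late and 2264 in Reactivated against Basal, 1584 in Reactivated against Early, 1746 in Reactivated against Late and 5674 for any difference, with 7 members. Members up and down were then 4 and 4 in Late and 1 and 1 in Reactivated against Basal, 2 up in Late and 0 and 1 in Reactivated against Early, and 1 up in Reactivated against Late; the cause was not tested. Fits of only 2 groups gave 2 members down in Reactivated against Basal and 2633 genes in Reactivated against Early, with fewer libraries. Without Basal 3 and Early 3, chosen after seeing the data, 5 members fell in Reactivated against Early and 5 against Late.

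Leaving out 1 library, genes called ran from 488 to 1224 in Early against Basal, 1703 to 4604 in Reactivated against Early and 2135 to 3827 in Reactivated against Late. Members up ran from 0 to 1 in Early against Basal, 9 to 19 in Late against Early, 5 to 17 in Reactivated against Early and 4 to 10 in Reactivated against Late. Members down ran from 5 to 9 in Late and 2 to 6 in Reactivated against Basal, 4 to 9 in Late against Early and 1 to 4 in Reactivated against Early. The lowest counts of members down came without Basal 2, Late 1 or Late 2 in Late against Basal (5) and without Basal 1 or Basal 2 in Reactivated (2). With the replicate number as a block, members up and down were 18 and 9 in Late and 16 and 4 in Reactivated against Basal, 17 and 7 and 12 and 2 against Early, 7 and 3 in Reactivated against Late, and 0 in Early against Basal, where 928 genes passed. The block ended 1 call of a named member. Depth limits Eif4ebp1, Eif1a, Eif1ax and Eef1e1 most.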
